A study of Mus musculus with 24 samples.

Results

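The 6 melanomas of TN61H/H mice were compared with the equal-weight mean of the melanomas of TN61R/R, TN61K/K and TN61L/L mice, 6 of each genotype and 24 in all, every genotype taken from the sample labels. TN mice carry Tyr::CreERT2, a tamoxifen-activated Cre recombinase driven by the tyrosinase promoter of melanocytes, and LSL-Nras, a knock-in allele at the endogenous Nras locus that is silent until Cre removes a transcriptional stop. All groups shared this transgene pair, the C57BL/6 background and topical 4-hydroxytamoxifen at 20 mM on postnatal days 1 and 2, and they differed in the residue that both Nras alleles encode at codon 61: histidine in TN61H/H, arginine in TN61R/R, lysine in TN61K/K and leucine in TN61L/L. The histidine, lysine and leucine alleles were made by editing zygotes of the TN61R/R line. Tumours were collected when a mouse reached its exclusion criteria, and neither age nor exposure to ultraviolet light is in the labels. The paper reports slower tumour formation in TN61L/L and TN61H/H mice than in TN61R/R and TN61K/K mice, with overall survival following onset. Age at collection may therefore differ by genotype and cannot be told apart from it. In the titles, the code is 61P for 2 TN61R/R tumours, 61K for 2 and 61L for 2, and for all other tumours it is that of their own genotype, so title code and TN61H/H genotype cannot be told apart.

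NRAS is a small GTPase that switches on RAF kinases and phosphoinositide 3-kinase while it holds GTP. Glutamine 61 takes part in GTP hydrolysis, and substitutions there leave the protein loaded with GTP. This codon is the main site of NRAS mutation in human melanoma. The study set residues of differing melanoma-driving strength side by side, and this comparison asks how tumours that formed with histidine differ in RNA from those of the other 3 residues.

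Raw read counts per gene came from libraries of 31946444 to 43773250 reads in TN61H/H and 32110047 to 41005764 in the other 18 tumours. Libraries of 1 genotype all differed beyond counting noise, with a chi-square per degree of freedom of at least 68.3 for any pair. CPM below are counts scaled to library size by TMM, and log2 fold changes are TN61H/H minus the mean of the other 3 genotypes, with their SE. Column names came in 2 styles, and 6 libraries (3 of TN61K/K and 1 of each other genotype) lacked a separator, a possible library batch. The melanoma label was checked against lineage genes: Sox10 lay between 109.7 and 1049 CPM and Mitf between 21.1 and 58.7 CPM in all 24 tumours, whereas the pigment enzyme gene Dct was at 0 in 3 of them and Tyr ranged from 0.0273 to 24.5 CPM.

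Nras itself lay between 151 and 213 CPM in TN61H/H tumours with a median of 194, against 75.5 to 225 CPM with a median of 127 in the other 18. All 6 TN61H/H tumours were above that median but inside the range of the others. The log2 difference was 0.47 ± 0.20 (SE, n = 6 against 18; edgeR quasi-likelihood adjusted p = 0.165) and did not pass the test. These reads come from all cells of the tumour and do not tell the alleles apart. By immunoblot the paper reports more NRAS protein in TN61H/H melanomas than in those of each other genotype. Protein was not measured here.

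Of 17214 genes tested, 1104 (6.41%) differed between TN61H/H and the mean of the other 3 genotypes at an adjusted p under 0.05. Of these, 639 were higher (3.71% of tested) and 465 were lower (2.70%) in TN61H/H. The TN61H/H mean lay beyond all 3 group means on the same side for each of the 1104 genes. The test chose these genes by the mean of the same 3 differences, so this describes the selection and is not separate support. Over all tested genes, called or not, TN61H/H lay above all 3 in 6093 (35.4%) and below all 3 in 5560 (32.3%). Changes were larger among the lower genes, with a median size of 1.11 on the log2 scale and 285 genes past 2-fold, than among the higher genes, with a median of 0.613 and 142 past 2-fold. The plot of fold change against p shows this asymmetry, with many small increases on the right.

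**Figure D1:**
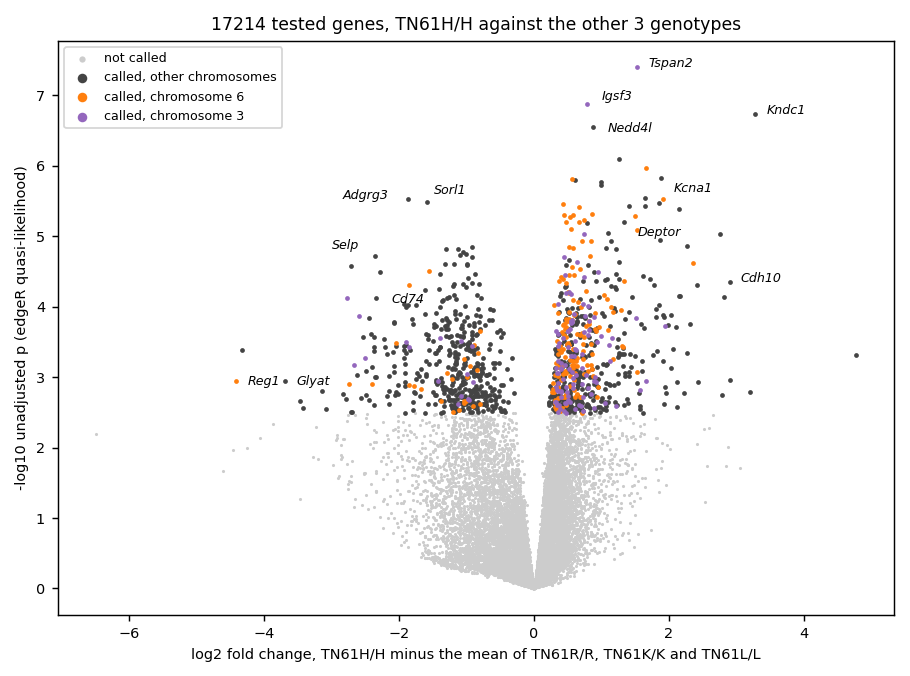
Log2 fold change of TN61H/H against the mean of TN61R/R, TN61K/K and TN61L/L (x axis) against −log10 of the unadjusted p (y axis), 1 point per tested gene. Called genes are dark, orange (chromosome 6) or purple (chromosome 3), and of the 639 called higher 153 lie on chromosome 6 and 102 on chromosome 3.

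The 3 reference genotypes were not equally far from TN61H/H. Taken singly in the same fit, TN61H/H differed from TN61K/K in 1612 genes (9.36%; 4.29% higher and 5.07% lower), from TN61R/R in 348 (2.02%; 1.26% higher and 0.761% lower) and from TN61L/L in 0 (0%), where 1931 genes had an unadjusted p under 0.05, the smallest adjusted p was 0.196, DESeq2 called 52 genes and limma-voom 0. Over the 639 genes called higher, the median log2 difference was 0.754 from TN61K/K, 0.616 from TN61R/R and 0.462 from TN61L/L, and TN61L/L was the nearest of the 3 in 465 of them (72.8%). Over the 465 genes called lower, the medians were -1.39, -1.10 and -0.806 in the same order, and TN61L/L was nearest in 364 (78.3%). The 3 differences share the TN61H/H tumours. Singly, 204 of the 639 higher genes passed against TN61R/R and 498 against TN61K/K, 174 passed against both and 111 against neither. Of the 465 lower genes, 128 passed against TN61R/R and 443 against TN61K/K, 124 passed against both and 18 against neither.

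Tumours differed in how far they took part. Among the genes called higher, the share above the median of the other 18 tumours was 100% in TN61H/H replicate 5, 99.8% in replicate 1, 97.8% in replicate 2, 97.2% in replicate 3, 93.9% in replicate 6 and 69.3% in replicate 4. The other 18 tumours lay between 10.8% and 83.1%, so replicate 4 was inside their range. Among the genes called lower, 95.3% to 100% were below that median in the TN61H/H tumours, against 6.7% to 92.3% in the others. These shares describe the genes the test chose. Without TN61H/H replicate 5 the count fell to 161 genes, without replicate 1 to 189 and without replicate 2 to 457, whereas without replicate 4 it was 1838. Leaving out TN61R/R replicate 5 gave 700 and TN61L/L replicate 4 gave 721. Within the 18 libraries whose column names have a separator 632 genes were called, 416 higher and 216 lower, and without TN61K/K in the contrast 149 were called. Every p-value here is set against the variation among these tumours alone. Of the 82 called genes named by the rules, 36 were called in every fit with 1 tumour left out. The split of 57.9% higher became 42.2% of 1876 genes with DESeq2 and 44.0% of 732 after removal of chromosome 6.

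**Figure D2:**
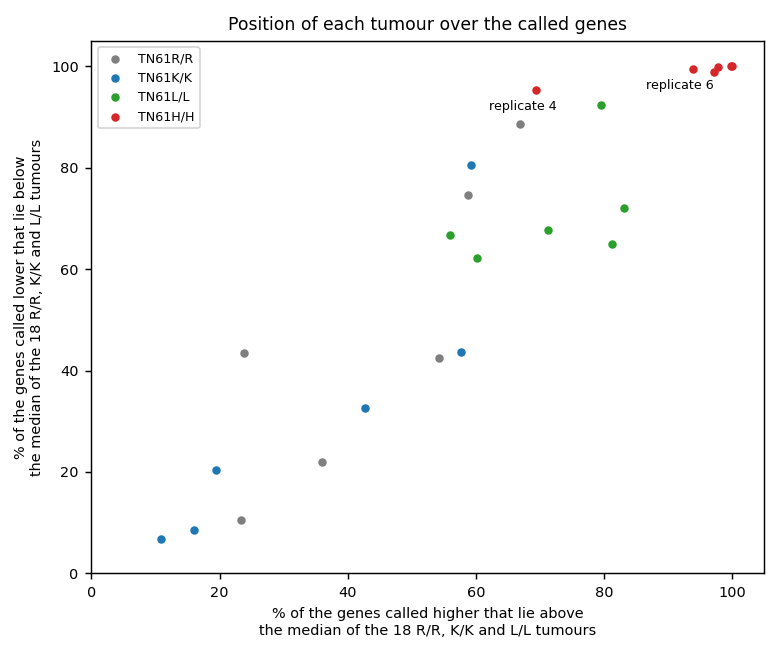
Share of the genes called higher that lie above (x axis, percent) and of the genes called lower that lie below (y axis, percent) the median of the 18 TN61R/R, TN61K/K and TN61L/L tumours, 1 point per tumour. TN61H/H replicate 4 stands at 69.3% and 95.3%, to the left of the other 5 TN61H/H tumours.

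Igsf3, which encodes an immunoglobulin superfamily membrane protein, was the single tested gene (0.00581%) in which all 6 TN61H/H tumours lay above all 18 others. Its level was 174 to 257 CPM with a median of 205 in TN61H/H and 71.3 to 146 CPM with a median of 123 elsewhere. The log2 fold change was 0.79 ± 0.10 (adjusted p = 0.00105), and the differences from TN61R/R, TN61K/K and TN61L/L were 0.75, 0.87 and 0.75. Igsf3 lies on chromosome 3 at 1.60 Mb from Nras. Tspan2, a tetraspanin gene at 0.286 Mb from Nras, had the smallest p of all genes, at 23.1 to 65.0 CPM with a median of 40.1 in TN61H/H and 9.12 to 32.4 CPM with a median of 13.8 in the others. The groups overlapped, with 4 of 6 TN61H/H tumours above all 18. Its log2 fold change was 1.53 ± 0.19 (adjusted p = 0.000679), and reads of the overlapping gene Tspan2os cannot be told from its own without strand. Of 40 genes tested within 2 Mb of Nras, Nras itself left out, 8 were called higher (20.0%, Igsf3 and Tspan2 among them, against 11.5% over chromosome 3 and 3.71% over all tested genes) and 1 lower, with a median log2 fold change of 0.293 against 0.0144 over all tested genes.

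**Figure D3:**
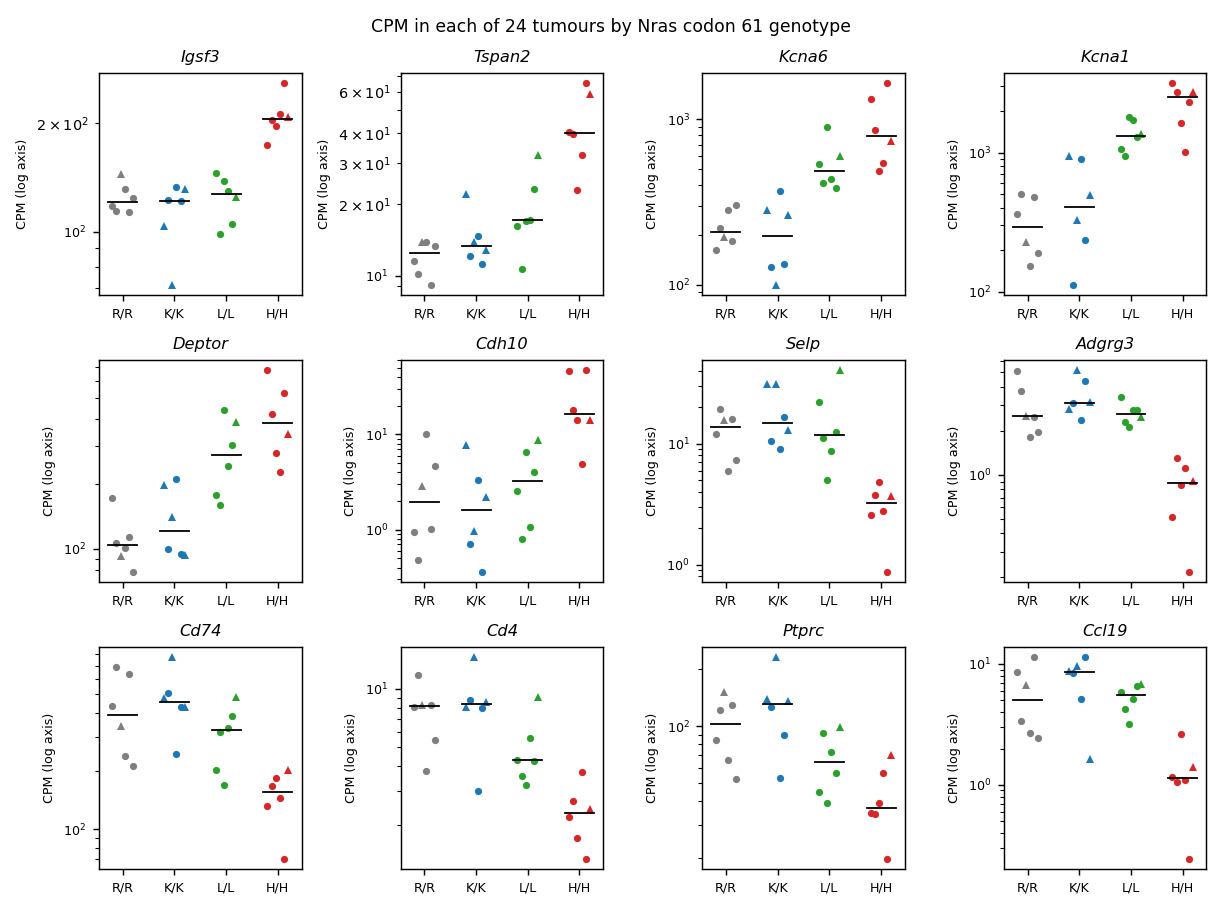
CPM on a log axis in each of 24 tumours for 12 genes, grouped by codon 61 genotype. Points are tumours, triangles are libraries whose column names lack a separator, and bars are group medians. All 6 TN61H/H tumours are above the rest for Igsf3 (174 to 257 CPM) and below the rest for Selp (0.874 to 4.81 CPM) and Adgrg3 (0.218 to 1.30 CPM).

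Igsf3, Tspan2, Kndc1, Nedd4l and Mrgprf are those with the smallest p among the higher genes and were picked after their values were seen. Kndc1, a RAS exchange factor-like gene of neurons, stood at 2.07 to 60.0 CPM with a median of 14.9 in TN61H/H and 0.516 to 14.8 CPM with a median of 1.70 elsewhere. It was 3.28 ± 0.44 higher on the log2 scale (adjusted p = 0.00105), by 4.08 and 4.40 over TN61R/R and TN61K/K and by 1.37 over TN61L/L. Nedd4l, which encodes a ubiquitin ligase for membrane channels and receptors, was 0.88 ± 0.12 higher (124.7 to 220 CPM against 57.9 to 129.7, adjusted p = 0.0012). Mrgprf, an orphan receptor gene, was 1.25 ± 0.19 higher (adjusted p = 0.0028), by 0.54 over TN61L/L and by 1.78 over TN61R/R.

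The genes farthest above even the nearest of the 3 genotypes were mostly low in the other tumours and uneven within TN61H/H. Cdh10, a neuronal cadherin gene, was at 4.93 to 47.2 CPM with a median of 16.2 in TN61H/H and 0.361 to 10.1 CPM with a median of 2.37 in the others. Only the lowest TN61H/H tumour overlapped with them. Its log2 fold change was 2.90 ± 0.57 (adjusted p = 0.00827) and at least 2.61 from each genotype. Frzb, which encodes a secreted WNT antagonist, rose by 2.15 ± 0.36 (3.32 to 29.4 CPM against 1.49 to 11.8, adjusted p = 0.0034). Flrt1, a gene for a fibroblast growth factor receptor-binding membrane protein, rose by 2.16 ± 0.44 (13.5 to 103 CPM against 1.44 to 37.8, adjusted p = 0.01), and Myh3, embryonic myosin heavy chain, by 2.41 ± 0.48 (adjusted p = 0.00843). Nxph3, a neurexin ligand, and Atoh8, a basic helix-loop-helix factor, were higher by 2.76 ± 0.48 and 2.36 ± 0.45 (adjusted p = 0.00446 and 0.00688). Both calls were lost without TN61H/H replicate 5, where the differences were 1.78 and 1.57 (adjusted p = 0.0571 and 0.0706). Dbh, dopamine beta-hydroxylase of noradrenaline synthesis, shows how far 1 tumour can carry a value: TN61H/H lay between 0.102 and 10.4 CPM with a median of 0.913, and its log2 fold change of 3.20 ± 0.89 (adjusted p = 0.0357) was 1.49 without replicate 5 (adjusted p = 0.459). The call was lost in 13 of 24 fits with 1 tumour left out. Tbx4, Spata18, Fendrr, Tmem30c and Nkx2-2os were higher by 1.93 to 2.90 with adjusted p between 0.0128 and 0.0431. All 5 lost the call without replicate 1 or without replicate 5, and also within the libraries with a separator. Over the 24 fits with 1 tumour left out, from any genotype, the call was lost in 18 for Nkx2-2os, 4 for Spata18, 3 for Fendrr and 2 each for Tbx4 and Tmem30c.

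Voltage-gated potassium channels help shape the membrane potential of neurons and myelinated axons, and Kcna1 and Kcna6 encode Shaker-type subunits. Of 26 tested channel genes 4 rose and 0 fell, against 3.71% higher and 2.70% lower over all tested genes, while the list median was -0.18, and the 4 were Kcna1, Kcna2, Kcna6 and Kcnh2. Kcna1 was at 1006 to 3148 CPM with a median of 2517 in TN61H/H and 112 to 1801 CPM with a median of 498 in the others. The highest of the others was a TN61L/L tumour, and 4 of 6 TN61H/H tumours exceeded all 18. Its log2 fold change was 1.91 ± 0.31 (adjusted p = 0.00331), by 2.83 over TN61R/R, 2.174 over TN61K/K and 0.73 over TN61L/L. Kcna6 rose by 1.65 ± 0.25 (487 to 1654 CPM against 99.7 to 902, adjusted p = 0.0029) and Kcnh2, of the cardiac delayed rectifier, by 1.89 ± 0.29 (2.23 to 9.17 CPM against 0.579 to 3.97, adjusted p = 0.0029). Kcna1 and Kcna6 lie on chromosome 6. Kcna6 is between 120 and 140 Mb, where the median shift of the tested genes (described below) was -0.0774.

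Neural crest and Schwann cell genes mark the lineage from which melanocytes arise. Of 20 tested, 5 rose (3.71% over all tested genes) and 0 fell, with a median log2 fold change of 0.557, and the summed CPM of the list was 4088 to 6884 in TN61H/H (median 5240) against 2012 to 4727 (median 3078). Sox10, the crest transcription factor that maintains melanocytes, was at 485 to 1049 CPM with a median of 539 in TN61H/H and 109.7 to 652 CPM with a median of 278 in the others. Its difference was 0.93 ± 0.24 (adjusted p = 0.0237). Cdh19, a Schwann cell precursor cadherin, rose by 1.08 ± 0.27 and Ngfr, the low-affinity neurotrophin receptor, by 0.75 ± 0.20 (adjusted p = 0.0227 and 0.0258), with Ngfr above all 18 in 5 of 6 tumours. Sox2 and Erbb3 were higher by 1.57 and 0.88 (adjusted p = 0.034 and 0.041). The calls of Sox10, Cdh19 and Ngfr were lost without TN61H/H replicate 1 (0.91, 0.96 and 0.72), replicate 2 (0.92, 1.10 and 0.72) or replicate 5 (0.69, 1.05 and 0.69), with adjusted p from 0.0515 to 0.146. Without replicate 6 that of Cdh19 alone was lost (0.85, adjusted p = 0.0895).

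GDNF family receptors pair with RET to receive survival signals in neural crest derivatives. Gfra2 was at 224.5 to 488 CPM with a median of 336.5 in TN61H/H and 80.1 to 488 CPM with a median of 136 in the others. Although the ranges overlapped, every TN61H/H tumour was above the median of the rest. The log2 fold change was 1.14 ± 0.20 (adjusted p = 0.0051). Gfra3 was called at 2.12 ± 0.62 (adjusted p = 0.0447) but was lost in 17 of 24 fits with 1 tumour left out. Ret stood at -1.10 (adjusted p = 0.36), and 2 of 9 genes of the list rose (3.71% over all tested genes). Among 21 PI3K, AKT and mTOR genes 3 rose and 2 fell, beside 3.71% and 2.70% over all tested genes. Deptor, an inhibitor that binds mTOR itself, was at 227 to 676.5 CPM with a median of 384 in TN61H/H and 78.2 to 442 CPM with a median of 151 in the others, the TN61L/L tumours again nearest. Its difference was 1.33 ± 0.23 (adjusted p = 0.00358). Pik3r5 and Pik3cg, the regulatory and catalytic subunits of the leukocyte PI3K gamma, fell by 1.16 ± 0.25 and by 0.76 ± 0.19 (adjusted p = 0.0124 and 0.0199). Without TN61H/H replicate 1 or 5 both missed the threshold, at -1.07 and -1.07 for Pik3r5 (adjusted p = 0.0549 and 0.0615) and -0.76 and -0.75 for Pik3cg (0.0719 and 0.0839), and Pik3cg also without replicate 2 (-0.74, 0.0641).

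RAS signals through RAF kinases to MEK and ERK. Braf, a RAF kinase gene on chromosome 6, was at 123.9 to 214.5 CPM against 69.1 to 170 CPM and stood at 0.41 ± 0.15 (adjusted p = 0.0889). Of 28 RAS and RAF pathway components tested, 1 rose and 1 fell (Rasgrp4, a RAS exchange factor of myeloid and mast cells, by 0.81, a call lost in 13 of 24 fits with 1 tumour left out), with a median of 0.0543. Of 20 ERK target and feedback genes 1 rose and 0 fell, with a median of 0.112. The counts of both lists are near the 3.71% higher and 2.70% lower over all tested genes. Dusp6, the ERK phosphatase induced by ERK activity, stood at 0.00 ± 0.17 (179.5 to 348 CPM against 112 to 418, adjusted p = 0.999) and Spry2 at 0.22 ± 0.15 (adjusted p = 0.408). The gene that rose was Spry1, a Sprouty feedback inhibitor on chromosome 3, by 0.91 ± 0.24 (adjusted p = 0.0272). It was lost without TN61H/H replicate 1, 2 or 5 (0.90, 0.83 and 0.61; adjusted p = 0.0719, 0.0776 and 0.19). In the EMT and invasion list 2 of 19 rose (3.71% over all tested genes). These were Itgb3, the melanoma-associated integrin beta chain, by 0.79 ± 0.14 (41.9 to 60.5 CPM against 15.9 to 45.3, adjusted p = 0.00358), and Zeb2 by 0.82 ± 0.20 (adjusted p = 0.0187). Zeb2 was lost without TN61H/H replicate 1, 5 or 6, at 0.71, 0.69 and 0.72 (adjusted p = 0.0932, 0.105 and 0.0583).

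Genes called higher were concentrated on a pair of chromosomes. Chromosome 6 held 153 of them, or 17.4% of its 878 tested genes, and chromosome 3 held 102, or 11.5% of 884, while every other chromosome had between 1.29% and 3.64% called higher. Genes called lower made up 2.96% and 1.81% of these chromosomes. Outside them 384 genes were higher and 423 lower. On chromosome 6 the median difference of the higher genes was 0.624 from TN61R/R, 0.709 from TN61K/K and 0.309 from TN61L/L, and singly 87, 143 and 0 of the 153 passed. On chromosome 3 the medians were 0.483, 0.653 and 0.54, and 15, 74 and 0 of the 102 passed.

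The same was measured per tumour as the median log2 CPM of a chromosome's tested genes against each gene's mean over the 24 tumours. For chromosome 3 the 6 TN61H/H tumours stood, in replicate order, at 0.133, 0.00932, 0.111, -0.0896, 0.337 and 0.326, and the other genotypes averaged -0.0542 (TN61R/R), -0.0243 (TN61K/K) and -0.04 (TN61L/L). In 4 of 6 TN61H/H tumours the value exceeded the highest of the other 18, 0.0791, and replicate 4 lay among the lowest. The shift of TN61H/H was 0.177 (exact two-sided permutation p = 0.00118, 0.0236 adjusted over 20 chromosomes). Without TN61H/H replicate 5 it was 0.123 and without replicate 6 it was 0.102 (adjusted p = 0.166 and 0.096). It passed the threshold neither within the libraries with a separator (0.141, adjusted p = 0.0514) nor without TN61H/H replicate 1 (0.154), TN61R/R replicate 1 or 5 (0.15 and 0.149), TN61K/K replicate 4 or 5 (0.146 and 0.151) or TN61L/L replicate 2, 3 or 4 (0.153, 0.148 and 0.151), with adjusted p from 0.0544 to 0.0759. In windows of 20 Mb along chromosome 3 the shift was between 0.107 and 0.263, so it was not confined to the window of Nras (100 to 120 Mb, 0.212).

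For chromosome 6 the TN61H/H tumours stood at 0.301, 0.194, -0.0489, 0.185, 0.215 and -0.0122. TN61L/L averaged 0.118, above TN61K/K at -0.0997 and TN61R/R at -0.153, and replicates 3 and 6 of TN61H/H lay below all TN61L/L tumours. The shift of TN61H/H from the other 18 was 0.184 (exact two-sided permutation p = 0.00706, adjusted p = 0.0545) and missed the threshold, and that from TN61L/L alone was 0.0213 (exact permutation p = 0.736). The shift passed without TN61H/H replicate 3 (0.201, adjusted p = 0.0296) or without TN61L/L replicate 1 (0.176, adjusted p = 0.0427), and with no filter on low counts it was 0.0978 (adjusted p = 0.274). Windows of chromosome 6 shifted by 0.187 to 0.302 except that of 120 to 140 Mb, at -0.0774. DNA copy number was not analysed here.

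**Figure D4:**
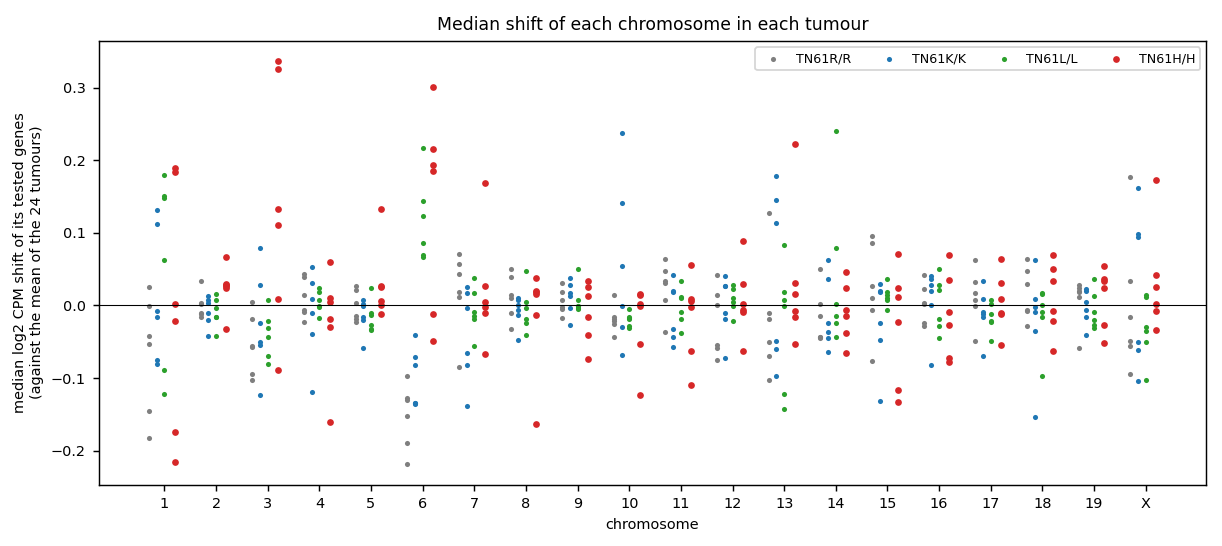
Median shift in log2 CPM of the tested genes of each chromosome (y axis) in each of 24 tumours, by chromosome (x axis) and genotype. On chromosome 3 the TN61H/H tumours reach 0.337 while replicate 4 is at -0.0896, and on chromosome 6 TN61H/H and TN61L/L lie above TN61R/R and TN61K/K.

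All 6 TN61H/H tumours were below the other 18 in 5 genes (0.0290% of tested). Selp, which encodes P-selectin for leukocyte rolling on endothelium and platelets, was at 0.874 to 4.81 CPM with a median of 3.24 in TN61H/H and 5.01 to 40.5 CPM with a median of 12.8 in the others. It fell by 2.36 ± 0.44 on the log2 scale (adjusted p = 0.0062), by about as much against each genotype (-2.04, -2.59 and -2.43 for R, K and L). Adgrg3, an adhesion receptor of neutrophils and lymphatic endothelium, was at 0.218 to 1.30 CPM against 1.82 to 5.18 CPM and fell by 1.87 ± 0.30 (adjusted p = 0.00331). Cyp1b1, a cytochrome of the aryl hydrocarbon response, was at 14.3 to 72.8 CPM with a median of 64.7 against 95.2 to 538.5 with a median of 146. It fell by 1.61 ± 0.33 (adjusted p = 0.00913). Gpr182, an endothelial chemokine-scavenging receptor, fell by 1.14 ± 0.30 (adjusted p = 0.0277) and was lost without TN61H/H replicate 1, 2, 5 or 6 (-1.16, -1.21, -1.07 and -1.18; adjusted p = 0.0812, 0.058, 0.104 and 0.0513). The remaining gene, D730005E14Rik, overlaps Apobec3, itself lower by 1.12 ± 0.20 (adjusted p = 0.00551). Sele, E-selectin of activated endothelium, was at 0.41 to 1.17 CPM against 0.901 to 15.8 and fell by 2.44 ± 0.53 (adjusted p = 0.0124), or -2.33 without TN61H/H replicate 5 (adjusted p = 0.0571). Of 12 endothelial genes, 0 rose and 1 fell (Tek, the angiopoietin receptor), beside 3.71% and 2.70% over all tested genes. Their median was -0.431, and their summed CPM was 622 to 1063 against 578 to 1684. Tek was called at -0.95 (adjusted p = 0.0422) and was lost in 15 of 24 fits with 1 tumour left out.

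Among the gene lists, which were chosen with earlier results of these data known, the pan-leukocyte list held the most genes called lower. Of 30 pan-leukocyte genes, all tested, 20 fell (2.70% over all tested genes) and 0 rose, with a median log2 fold change of -0.946 against 0.0144 over all genes, and in all 30 TN61H/H lay below all 3 group means. In bulk tissue, fewer cells of a type and less RNA per cell cannot be told apart. The summed CPM of the list was 322 to 703 with a median of 418 in TN61H/H and 426 to 2408 with a median of 850 in the other 18, so the ranges overlapped. The median difference was -1.31 from TN61K/K, -1.03 from TN61R/R and -0.585 from TN61L/L. Ptprc, the CD45 phosphatase of all leukocytes, was at 19.9 to 70.2 CPM with a median of 37.1 in TN61H/H and 39.3 to 232 CPM with a median of 91.0 in the others. It fell by 1.17 ± 0.30 (adjusted p = 0.0227). In stained tumour sections, by contrast, the paper reports no difference between the genotypes in CD45-positive cells. That is a measure of protein-positive cells and not of RNA, and the link between the measures was not tested. The smallest p in the list belonged to regulators of the actin cytoskeleton and of vesicle traffic: Fgd3 (-1.01 ± 0.19), Dennd1c (-0.91 ± 0.17) and Abi3 (-0.99 ± 0.19), with adjusted p = 0.00609, 0.00621 and 0.00688. The number of called members was 4 without TN61H/H replicate 1 or without replicate 5, 9 without replicate 2 and 28 without replicate 4, and 14 within the libraries with a separator, while the median stayed between -1.12 and -0.883 with any 1 tumour left out. Ptprc was not called without TN61H/H replicate 1, 2 or 5 (-1.13, -1.13 and -1.04; adjusted p = 0.0855, 0.07 and 0.0964).

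Antigen presentation and lymphocyte genes followed. MHC class II molecules show peptides to CD4 T cells and are made by dendritic cells, macrophages and B cells under the coactivator CIITA. Of 17 genes of dendritic cells and MHC class II, 8 fell (2.70% over all tested genes) and 0 rose, with a median of -1.16. Their summed CPM was 179 to 638.5 (median 393) against 423 to 2042 (median 1034). Ciita was at 9.18 to 17.2 CPM with a median of 13.5 against 16.2 to 63.9 CPM with a median of 31.8, and fell by 1.32 ± 0.25 (adjusted p = 0.00688). Cd74, the invariant chain, was at 70.6 to 201 CPM with a median of 156 against 169 to 775 CPM with a median of 405. It fell by 1.41 ± 0.28 (adjusted p = 0.00892), from all 3 genotypes by 1.07 or more. H2-Eb1, an MHC class II beta chain, fell by 1.48 ± 0.33 (adjusted p = 0.013) and was lost without TN61H/H replicate 1 or 5 (-1.46 and -1.32; adjusted p = 0.0557 and 0.0601). Of 22 T and NK cell genes 5 fell (2.70% over all tested genes) and 0 rose, with a median of -1.27. Cd4 was at 1.34 to 3.75 CPM with a median of 2.31 in TN61H/H and 2.99 to 14.6 CPM with a median of 8.05 in the others, with 5 of 6 TN61H/H tumours below all 18. It fell by 1.55 ± 0.30 (adjusted p = 0.00771). Nkg7, a granule gene of cytotoxic cells, fell by 1.75 ± 0.37 (adjusted p = 0.0113). The T cell receptor chains Cd3d, Cd3g and Cd3e were at -1.41, -1.13 and -1.18 and did not pass (adjusted p = 0.23, 0.26 and 0.32), and Foxp3 of regulatory T cells was at 0.22. Without TN61H/H replicate 1 or 5, 2 members of each of these lists were called, and without replicate 2, 3 of each.

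**Figure D5:**
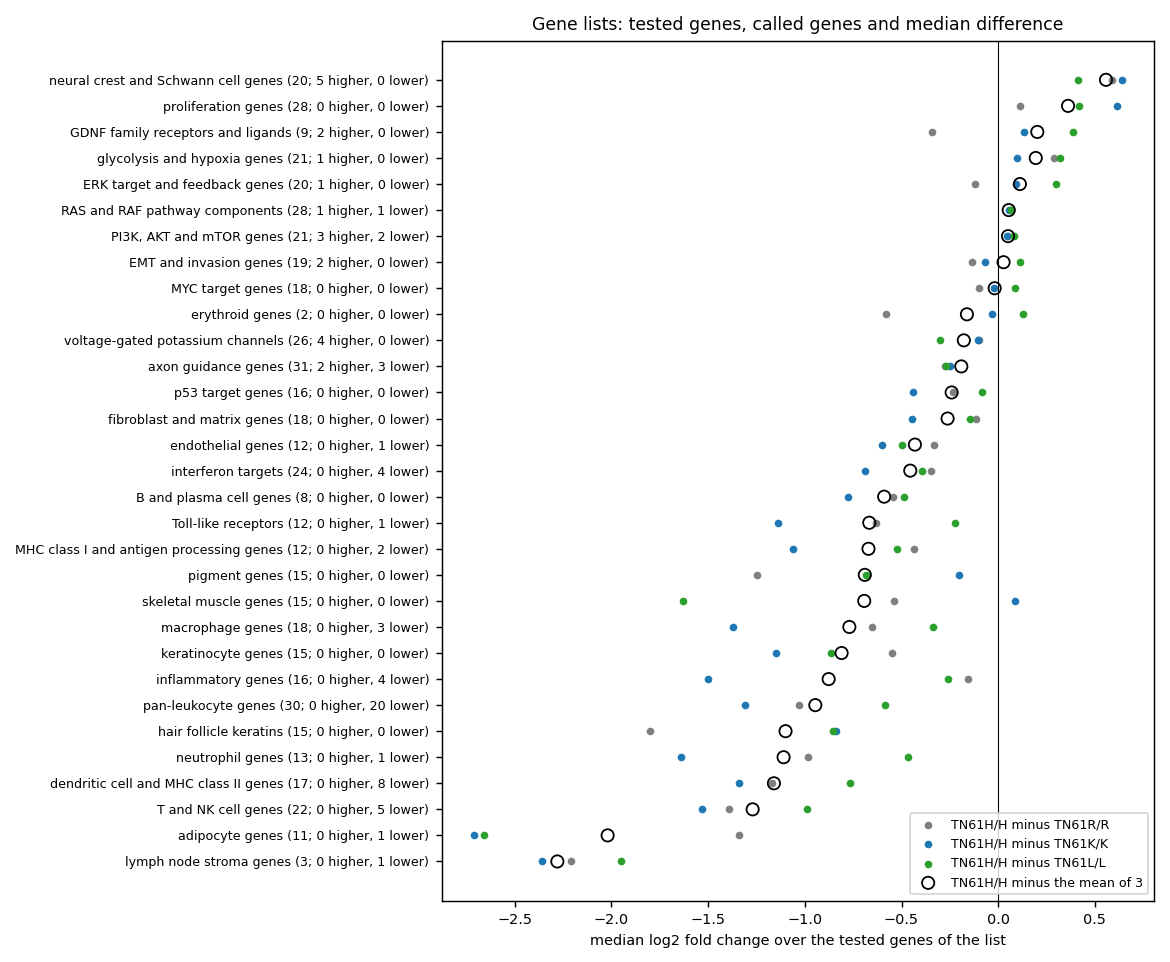
Median log2 fold change over the tested genes of 31 gene lists (x axis), with the number tested and called in each list's name. Open circles are TN61H/H minus the mean of the other 3 genotypes, and filled circles are the differences from each genotype. Pan-leukocyte genes (20 of 30 lower) stand at -0.946 and neural crest and Schwann cell genes (5 of 20 higher) at 0.557.

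Among myeloid genes, of 18 macrophage genes 3 fell (Cd14, Itgam and Fcgr1), with a median of -0.77, and all 3 calls were lost without TN61H/H replicate 1 or 5 (-1.05 to -1.02; adjusted p from 0.0526 to 0.151). Of the 24 fits with 1 tumour left out, from any genotype, Itgam was lost in 15 and Fcgr1 in 16. Of 13 neutrophil genes 1 fell, with a median of -1.11. Over all tested genes 2.70% fell, the background for both lists and for the Toll-like receptors below. Csf3r, the receptor of granulocyte colony-stimulating factor, was at 3.83 to 13.5 CPM with a median of 5.57 against 7.36 to 27.6 CPM with a median of 13.9. Only 1 TN61H/H tumour, replicate 4, overlapped with the others. It fell by 1.18 ± 0.22 (adjusted p = 0.00688). Csf2rb2 and Csf2rb, near-identical beta chains of the interleukin 3 and granulocyte-macrophage receptors whose reads may be split uncertainly, fell by 1.31 ± 0.24 and by 1.06 ± 0.19 (adjusted p = 0.00551 and 0.00592). Sorl1, a sorting receptor, fell by 1.58 ± 0.26 (5.84 to 19.01 CPM against 17.6 to 66.1, adjusted p = 0.00331). Tlr9, the endosomal receptor for unmethylated DNA, was the single one of 12 Toll-like receptors called, at 4.45 to 6.47 CPM with a median of 5.35 against 4.98 to 19.9 CPM with a median of 11.1, and fell by 1.10 ± 0.20 (adjusted p = 0.0062).

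Among 16 inflammatory genes 4 fell (2.70% over all tested genes) and 0 rose. Their median of -0.877 was -1.50 from TN61K/K, -0.156 from TN61R/R and -0.261 from TN61L/L. Icam1, the ligand of leukocyte integrins, fell by 1.18 ± 0.24 (8.11 to 22.8 CPM against 22.7 to 74.8, adjusted p = 0.0099). Il1b, interleukin 1 beta, was at 0.764 to 4.06 CPM with a median of 1.57 against 1.08 to 70.2 CPM with a median of 7.08, and fell by 2.62 ± 0.69 (adjusted p = 0.0265). Its call was lost without TN61H/H replicate 1, 2 or 5 (-2.51, -2.48 and -2.47; adjusted p = 0.0874, 0.072 and 0.0964). Of 24 interferon targets 4 fell (Oas2, Irf9, Mx1 and Stat2) and 0 rose, beside 2.70% lower over all tested genes, with a median of -0.455. Oas2, an antiviral RNA sensor, fell by 1.42 ± 0.34 (adjusted p = 0.0178) and was lost without TN61H/H replicate 1, 2 or 5 (-1.44, -1.32 and -1.32; adjusted p = 0.061, 0.0543 and 0.0742), as were Irf9 and Mx1 (adjusted p from 0.0679 to 0.134). With any 1 tumour left out Irf9 was lost in 4 and Mx1 in 8 of 24 fits. Of 12 MHC class I genes 2 fell (H2-T23 and Tapbp), beside 2.70% over all tested genes, with a median of -0.671. These calls were lost in 18 and 17 of 24 fits with 1 tumour left out. The chemokine gene Ccl19 of lymph node stroma, which has near-identical copies, was at 0.246 to 2.63 CPM with a median of 1.13 against 1.65 to 11.4 CPM with a median of 6.25. It fell by 2.28 ± 0.44 (adjusted p = 0.00771), while Cxcl13 stood at -2.33 (adjusted p = 0.07). Of 7 listed lymph node stroma genes 3 passed the filter on low counts. Summed CPM of that list was 4.40 to 8.72 in TN61H/H and 5.75 to 20.2 in the others, and its part in the leukocyte differences was not tested.

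The genes farthest below even the nearest genotype came from several tissues. Tnfsf13b, the B cell survival factor BAFF of myeloid cells, was at 0.802 to 2.33 CPM with a median of 1.29 in TN61H/H and 1.74 to 25.9 CPM with a median of 8.20 in the others. It fell by 2.71 ± 0.52 (adjusted p = 0.00689). Glyat, a liver glycine acyltransferase, and Reg1, a secreted lectin of the pancreas, were lower by 3.69 ± 0.99 and 4.41 ± 1.18 (both adjusted p = 0.0298). Glyat was lost without TN61H/H replicate 1, 5 or 6 and Reg1 without each TN61H/H tumour but replicate 4, with values from -4.46 to -3.44 and adjusted p from 0.0552 to 0.0924. Hp (haptoglobin), Wif1 (a WNT inhibitor), Coch, Ffar2, Sectm1a and Fam205c were lower by 2.37 to 2.83 with adjusted p between 0.0143 and 0.0491. All 6 lost the call without TN61H/H replicate 1 or replicate 5. Over the 24 fits with 1 tumour left out, from any genotype, it was lost in 18 for Hp, 13 for Wif1, 10 for Coch, 7 for Ffar2, 3 for Fam205c and 2 for Sectm1a.

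RefSeq promoters (build GRCm38.p6, 250 bases before to 50 after each start) were searched on both strands for 4 motifs, no letters of which can match the E-box and the M-box core at once: the PU.1 core GAGGAAGT of the myeloid and B cell factor, the AP-1 site TGANTCA, the E-box CACGTG and the M-box core TCATGTG of the melanocyte factor MITF. A promoter entry existed for 12649 tested genes, 471 of them called higher and 332 called lower, and for 60 of the 88 genes named by the rules. The PU.1 core was in 3.11% of all tested promoters, 1.49% of the higher and 9.94% of the lower genes. The AP-1 site was in 5.86%, 2.34% and 7.53%, the E-box in 9.36%, 6.79% and 7.83% and the M-box core in 2.38%, 1.70% and 4.22%. A match is a description of letters and not of binding. Promoters of 4 genes that fell are shown because they hold the PU.1 core, from chr13:49309159-49309458 (minus strand), chr17:57078449-57078748 (minus), chr15:78305672-78305971 (minus) and chr9:106222348-106222647 (plus). Capitals mark the PU.1 core on either strand (ACTTCCTC where it is on the other strand), and earlier in the run an M-box core in Csf2rb2 and an AP-1 site in Tlr9:
Fgd3: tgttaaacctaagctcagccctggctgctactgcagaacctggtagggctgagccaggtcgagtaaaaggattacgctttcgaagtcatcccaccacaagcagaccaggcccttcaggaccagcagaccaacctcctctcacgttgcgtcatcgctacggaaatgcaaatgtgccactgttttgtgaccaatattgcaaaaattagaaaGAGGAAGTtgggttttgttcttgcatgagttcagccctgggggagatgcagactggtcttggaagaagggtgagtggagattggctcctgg
Dennd1c: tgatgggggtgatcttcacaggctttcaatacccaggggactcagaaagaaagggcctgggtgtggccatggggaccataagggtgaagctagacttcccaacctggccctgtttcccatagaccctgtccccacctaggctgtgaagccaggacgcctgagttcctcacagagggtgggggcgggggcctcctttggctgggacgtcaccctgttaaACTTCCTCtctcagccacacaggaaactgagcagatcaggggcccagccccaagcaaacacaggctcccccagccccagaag
Csf2rb2: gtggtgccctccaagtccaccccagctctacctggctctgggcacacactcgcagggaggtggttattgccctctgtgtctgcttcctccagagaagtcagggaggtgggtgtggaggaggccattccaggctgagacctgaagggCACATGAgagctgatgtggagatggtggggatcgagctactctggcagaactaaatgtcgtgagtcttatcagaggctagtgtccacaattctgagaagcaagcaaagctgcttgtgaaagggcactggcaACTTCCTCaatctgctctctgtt
Tlr9: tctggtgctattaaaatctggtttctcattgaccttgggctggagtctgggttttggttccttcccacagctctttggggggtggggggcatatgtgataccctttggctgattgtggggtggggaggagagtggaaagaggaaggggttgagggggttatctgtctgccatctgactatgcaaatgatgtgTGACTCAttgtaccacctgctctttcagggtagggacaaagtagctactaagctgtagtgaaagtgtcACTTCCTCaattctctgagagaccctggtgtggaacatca

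In the remaining lists up to 5 genes were called. Of 28 proliferation genes 0 were called, with a median of 0.361 and TN61H/H above all 3 means in 20. Mki67 was at 392 to 623 CPM with a median of 439 in TN61H/H against 98.1 to 814 CPM with a median of 282 (0.56 ± 0.28, adjusted p = 0.244). By Ki67 staining of tumour sections the paper reports the other direction, with slightly less proliferation in TN61H/H than in the other genotypes. Of 15 pigment genes 0 were called, with a median of -0.69, and Mitf stood at 0.24 ± 0.20 (adjusted p = 0.504). Of 31 axon guidance genes 2 rose and 3 fell, beside 3.71% and 2.70% over all tested genes, among them Slit3, a repulsive guidance ligand, by 1.17 ± 0.29 (46.01 to 247 CPM against 166 to 574, adjusted p = 0.0198). Slit3 was lost without TN61H/H replicate 1 or 5 (-1.17 and -1.01; adjusted p = 0.0651 and 0.0685). Of 21 glycolysis and hypoxia genes 1 rose (3.71% over all tested genes), Car9, a hypoxia-induced carbonic anhydrase, by 1.06. Its call was lost in 15 of 24 fits with 1 tumour left out, and without TN61H/H replicate 4 it stood at 0.34 (adjusted p = 0.38). Markers of skin around the tumour were lower without passing, with medians of -0.81 over 15 keratinocyte genes and -1.10 over 15 hair keratins. Their summed CPM overlapped widely, at 12.2 to 5588 against 7.52 to 10530 and at 0.819 to 6533 against 0.840 to 17930. With 1 tumour left out the medians ran from -1.62 to -0.552 and from -4.57 to -0.385. Of 11 adipocyte genes 1 fell (2.70% over all tested genes), Pparg by 1.68 ± 0.46 (adjusted p = 0.034). The list had a median of -2.02 and a summed CPM of 69.3 to 231 against 69.7 to 4003. Pparg was lost without TN61H/H replicate 1, 2, 5 or 6 or TN61R/R replicate 5, at -1.74 to -1.52 (adjusted p from 0.0524 to 0.119). The part of surrounding skin and fat in the lower genes was not tested. None of 18 MYC targets, 16 p53 targets, 18 fibroblast and matrix genes, 15 skeletal muscle genes, 8 B and plasma cell genes or 2 erythroid genes was called.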

How the data were processed

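RNA was sequenced from 24 melanomas, 6 per genotype. The authors aligned reads to mm10 with STAR, used Picard 2.17.11 and deposited raw counts per gene made with featureCounts; whether counting used strand or removed duplicates was not stated in the labels or the methods. The labels name polyA RNA while the protocol describes ribosomal RNA depletion and a stranded total RNA kit. Of 24421 genes, 2830 had no read, 27 date-damaged names were kept unnamed and 17214 passed filterByExpr. edgeR 4.0.16 (R 4.3.3) was fitted once to 24 libraries by genotype, with TMM scaling, a robust quasi-likelihood F-test and Benjamini-Hochberg adjustment, called under 0.05. The study used DESeq2, run here as an alternative (1.42.0) beside limma-voom (3.58.1). SE is the log2 fold change over the root of F. Chromosome shifts were tested by exact permutation of 6 labels among 24 (134596 splits), adjusted over 20 chromosomes. The script was tested on simulated data. Members, gene lists and tests were chosen with earlier results of these data known. Named genes were 8 always shown, up to 12 called genes per direction of at least 1 CPM ranked by the smallest of the 3 differences, up to 6 beyond all 18 others, up to 3 called genes per list, and 5 of smallest p per direction, added after values were seen. At 31946444 to 43773250 reads per library, counting error is small for genes with many reads. For those, the spread between tumours and their number limit precision. Values well below 1 CPM rest on few reads, and counting error adds to their spread. Replicate numbers were given in accession order. Some genes that these rules name are not reported here.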

Additional observations from a re-analysis of the deposited data

Results flagged for a closer look

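In 27 of 360 groups of 6 tumours tested, 1 tumour lay far from the other 5 (gap over range above 0.625), and chance alone gives about 1 in 20. TN61H/H replicate 4 was the highest of its group for Apobec3 (21.06 CPM) and Csf3r (13.46 CPM) and the lowest for Fendrr (0.7404 CPM), Flrt1 (13.48 CPM), Nkx2-2os (0.2043 CPM) and Spata18 (0.1021 CPM), in each case toward the other genotypes. TN61H/H replicate 5 was the lowest for Cyp1b1 (14.34 CPM), Gpr182 (1.201 CPM), Hp (1.556 CPM), Nkg7 (0.1092 CPM), Pparg (1.201 CPM) and Selp (0.8738 CPM) and the highest for Sox10 (1049 CPM), in each case away from them. TN61H/H replicate 6 was the lowest for Ngfr (353.6 CPM) and replicate 1 for Wif1 (0.057 CPM).

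In the other genotypes, TN61R/R replicate 2 was the lowest for Atoh8 (0.2983 CPM) and Fam205c (0.08948 CPM), replicate 1 the highest for Braf (170.3 CPM), and replicate 6 the lowest for Gfra2 (80.08 CPM), Irf9 (22.34 CPM) and Oas2 (11.35 CPM). TN61K/K replicate 6 was the highest for Dusp6 (418.4 CPM) and replicate 4 the lowest for Glyat (0.3933 CPM). In TN61L/L, replicate 6 was the highest for Il1b (25.85 CPM), and replicate 1 stood apart for Irf9 (30.6 CPM), Mx1 (2.847 CPM) and Tnfsf13b (22.08 CPM).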

How the results depend on the processing

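The number of called genes, 1104, stayed within 1.5 times under DESeq2 size factors (968), upper-quartile scaling (971), no filter (877), a filter of 1 CPM in 12 libraries (1141), Xist as a covariate (1034), pooling of the other 3 genotypes (887), limma-voom (788) and a contrast without TN61L/L (1586). It moved to 632 in the 18 libraries with a separator, 1682 with column name style as a covariate, 732 without chromosome 6, 684 without chromosomes 3 and 6, 716 without TN61R/R in the contrast, 149 without TN61K/K and 1876 with DESeq2. Genes with TN61H/H beyond all 3 means gave 632, 1681, 732, 684, 716, 149 and 1874. With 1 tumour left out, genes called ranged from 161 (without TN61H/H replicate 5) to 1838 (without replicate 4), and those beyond all 3 means from 161 to 1837. All 82 named called genes kept their direction wherever they were tested, and 33 were called in every setting that tested them. The chromosome 3 shift of 0.177 missed the threshold with upper-quartile scaling (0.154, adjusted p = 0.0895) and in the 18 libraries with a separator (0.141, adjusted p = 0.0514), and ranged from 0.102 to 0.201 with 1 tumour left out. The chromosome 6 shift of 0.184 passed with the filter of 1 CPM (0.205, adjusted p = 0.0251), was 0.0978 with no filter (adjusted p = 0.274) and ranged from 0.123 to 0.201 with 1 tumour left out. Dusp6, at 0.00, changed sign in the 18 libraries with a separator (0.1566), with column name style (0.03158) or Xist (0.0009778) as a covariate, without chromosomes 3 and 6 (0.01133), without TN61R/R (0.1209) or TN61K/K (0.04247) in the contrast and with limma-voom (0.008356), and ranged from -0.1644 to 0.03911 with 1 tumour left out. Called list members outside the naming rule, such as Sox2, Erbb3, Kcna2, Stat2, Ephb2 and Slit2, were not followed gene by gene. Beyond smaller sample or gene sets, the cause was not tested. Contrasts without TN61R/R, TN61K/K or TN61L/L, the removal of chromosome 3 with 6 and some alternatives for the chromosome 3 shift were chosen after seeing the data. No paired analysis was possible because replicate numbers were given in accession order.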

Other observations

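A pair of TN61H/H tumours, replicates 4 and 5, share a number in their titles but differ in Xist, so they were kept as separate tumours. Axon guidance genes not described above moved both ways: Plxna4 and Ephb2 were called higher, and Unc5a and Slit2 were called lower beside Slit3. The call of Plxna4 was lost in 7 of 24 fits with 1 tumour left out (without TN61H/H replicates 1, 2, 4 and 5 and TN61R/R replicates 1, 3 and 5) and that of Unc5a in 3 (without TN61H/H replicates 1, 2 and 5, adjusted p = 0.0628, 0.0553 and 0.0731).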
